A study of Mus musculus with 8 samples.

Results

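Notch signalling is read here through 10 genes that act at or near its output. They are the basic helix-loop-helix repressors Hey1, Hey2, Heyl and Hes1, the feedback inhibitor Nrarp, the Fringe glycosyltransferases Lfng, Mfng and Rfng, the DNA-binding factor Rbpj and its co-activator Maml1. They were taken by symbol from a table of 53465 genes, and all 10 were among the 15388 genes that passed the filter on low counts. The list was chosen by pathway role with the CPM comparison between the groups already known, in which Nrarp had been called and Hey2 had been described. The differences between groups are therefore given for these 10 genes as a description, with intervals and without p-values, and nothing is inferred from how many of them moved.

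RNA was measured in mouse heart ventricles at embryonic day 15.5, with 1 ventricle per library according to the series' design. One group of 4 libraries is labelled WT. The other group of 4 is labelled Nrg-1flox;Cdh5-CreERT2 (Flox libraries from here on) and combines a floxed neuregulin-1 allele with a tamoxifen-inducible Cre that is driven by the endothelial gene Cdh5. The strain, the timing of tamoxifen and whether the WT embryos carried a floxed allele or Cre or received tamoxifen are not given in the sources used here. Each library is bulk tissue, so the endothelial cells that the Cre targets are a minority beside cardiomyocytes.

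In the Notch pathway, a ligand on one cell binds a Notch receptor on its neighbour, and the receptor is cut so that its intracellular part enters the nucleus. There it joins RBPJ, which is already on DNA, and a Mastermind protein such as MAML1, and transcription of targets such as the Hes and Hey genes begins. NRARP is made in response and dampens the same complex. Fringe enzymes add a sugar to the extracellular part of the receptor and so shift its preference between Delta-like and Jagged ligands. In the developing ventricle Notch is active in endocardium and coronary vessels, whereas Hey2 also marks the compact myocardium.

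The libraries held 16761763 to 24144272 expected counts, and levels are given as CPM, counts scaled for library size and TMM factors (0.988 to 1.01). Nrg1, the targeted gene, did not have a reduced level in the Flox libraries: it lay between 4.08 and 5.46 CPM in WT and between 5.36 and 6.82 CPM in the other group. Gene-level counts include exons outside the floxed part and every cell type, and a direction stated below is that of the Flox label, not of a measured loss of Nrg1. In 7 of the 8 libraries more than 20 counts of both Xist and Y-linked genes were present. The exception, WT library 4, had 0.176 CPM of Xist. Both kinds of transcript together are hard to reconcile with the stated 1 ventricle per library, and their source was not tested. Xist was at 103 to 327 CPM in the Flox libraries and at up to 206 CPM in WT. Y-linked genes summed to 69.3 to 171.2 CPM in WT and to 42.9 to 119.9 CPM in Flox libraries. Some results are therefore also given from a fit with the summed Y-linked level as a term (Y-linked fit). Because that level tended to be lower in the Flox libraries, the term can take up part of a difference between groups. A smaller value in that fit does not tell the label and these transcripts apart. Cardiomyocyte markers such as Tnnt2 and Myh7 summed to 31930 to 37580 CPM, in keeping with the labelled tissue. Endothelial markers summed to 1376 to 1516 CPM and mural markers to 1852 to 2028 CPM. Epicardial markers summed to 72.3 to 86.3 CPM, fibroblast markers to 4530 to 5581 CPM, erythroid markers to 2789 to 6343 CPM and macrophage markers to 55.6 to 86.5 CPM.

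Across all tested genes, 81 of 15388 (0.526%) were called at a false discovery rate (FDR) below 0.05, and the CPM ranges of WT and Flox libraries were separate in 6.05%. The number called rested on single libraries: omitting any of the 8 moved it by more than 1.5 times, to between 11 (without Flox library 3) and 142 (without Flox library 4), and it was 16 in the Y-linked fit. Among the 10 genes the same fit called 1, Nrarp, and the ranges were separate in 4 (Hey2, Heyl, Nrarp and Mfng). Because the list was made with this contrast known, nothing is read from these counts. The median log2 fold change of the 10 was -0.02, with 3 above 0 and 7 below, against -0.0012 over all tested genes, of which 49.4% were above 0. The repressors, the feedback inhibitor, the Fringe genes and the nuclear factors are described in turn.

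**Figure D1:**
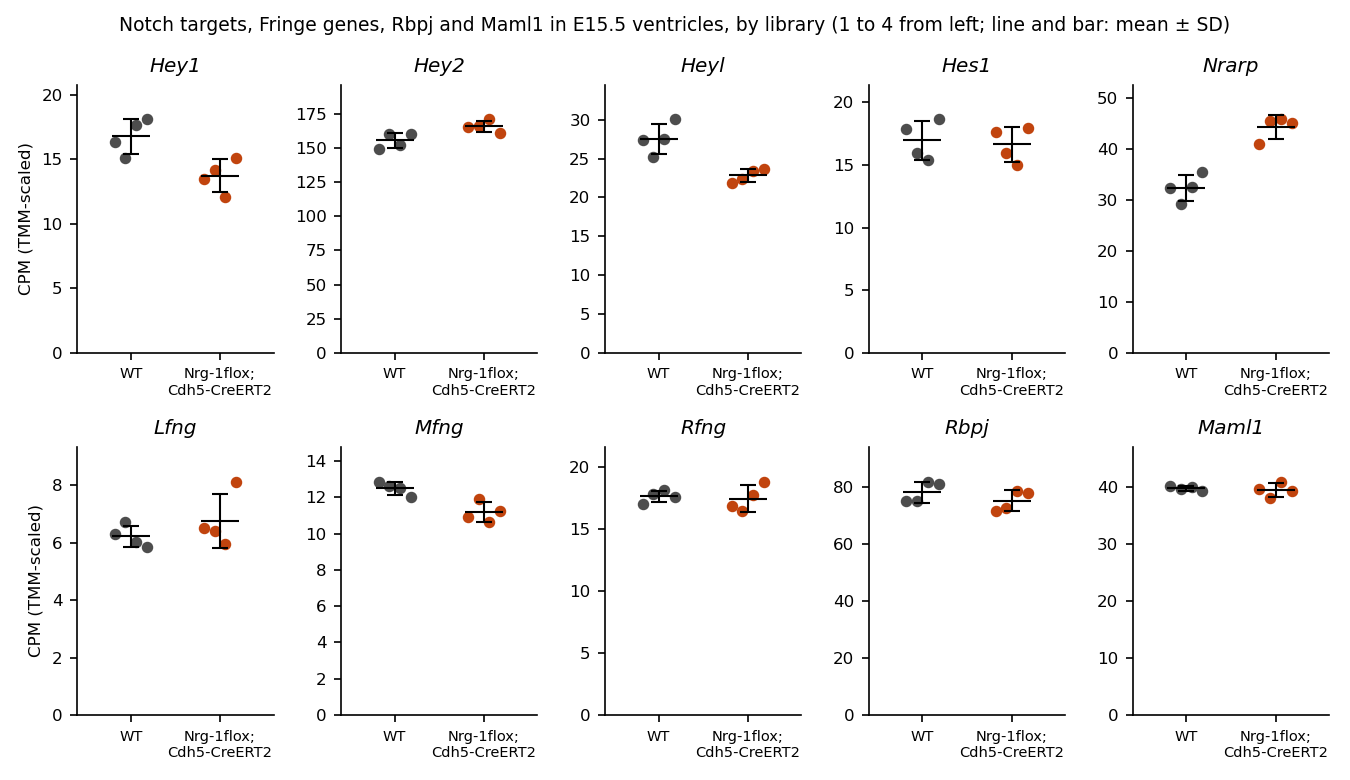
CPM of the 10 genes in each library, with a panel per gene and a vertical axis that starts at 0; points are libraries 1 to 4 from left to right in each group, and the line with its bar is the mean ± SD. Hey1, Heyl and Mfng sit lower in the Flox libraries and Nrarp higher, while Hes1, Rfng, Rbpj and Maml1 lie at nearly the same level in both groups.

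Hey1 encodes a transcriptional repressor that Notch induces in endothelium (ENSMUSG00000040289, GRCm38 chromosome 3, 8663359 to 8667256, minus strand). Its level was 16.4, 15.1, 17.6 and 18.1 CPM for WT libraries 1 to 4 and 13.5, 14.2, 12.1 and 15.1 CPM for Flox libraries 1 to 4. The groups met at their edges, since the highest Flox value (15.13 CPM) passed the lowest WT value (15.10 CPM). The means were 16.8 ± 1.35 and 13.7 ± 1.28 CPM (SD, n = 4), and the fitted difference was -18.5%. The log2 fold change was -0.30 (95% confidence interval -0.47 to -0.12). In the Y-linked fit it came to -0.18.

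Heyl, whose product is a relative of HEY1 best known from vascular mural cells (ENSMUSG00000032744, chromosome 4, 123233556 to 123249875, plus strand), showed a difference of nearly the same size. It was at 27.4, 25.2, 27.5 and 30.05 CPM in WT and at 21.9, 22.4, 23.5 and 23.7 CPM in Flox libraries. Every Flox library was below every WT library. The means were 27.5 ± 1.98 and 22.9 ± 0.840 CPM (SD, n = 4), and the log2 fold change was -0.27 (95% confidence interval -0.39 to -0.15). In the Y-linked fit it came to -0.18.

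Hey2 went the other way by a small amount. It encodes the Hey repressor that marks compact myocardium (ENSMUSG00000019789, chromosome 10, 30832359 to 30842801, minus strand), and it was by far the most abundant of the 10 genes. It was at 149.6, 159.9, 152.1 and 160.6 CPM in WT and at 165.5, 166.2, 170.9 and 160.7 CPM in Flox libraries. The groups were separated by the narrow step between 160.6 CPM in WT library 4 and 160.7 CPM in Flox library 4. The fitted difference was 6.62%, with a log2 fold change of 0.09 (95% confidence interval 0.02 to 0.17). In the Y-linked fit the log2 fold change was 0.07. The spread was also small, at 3.55% of the mean in WT and 2.5% in the Flox libraries.

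Hes1 encodes the Hairy-related repressor that many signals besides Notch induce (ENSMUSG00000022528, chromosome 16, 30064384 to 30067796, plus strand). It was at 17.9, 15.9, 15.4 and 18.6 CPM in WT and at 17.6, 15.98, 14.97 and 17.95 CPM in Flox libraries. The range of one group lay almost wholly on that of the other. The log2 fold change was -0.03, and its 95% confidence interval of -0.20 to 0.14 leaves room for a difference of either sign. The 4 repressors thus fell into Hey1 and Heyl with lower means, Hey2 with a slightly higher mean and Hes1 with none that could be seen at this spread.

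Nrarp encodes a small ankyrin-repeat protein that binds the Notch intracellular domain and limits its activity (ENSMUSG00000078202, chromosome 2, 25180758 to 25183339, plus strand). It was at 32.3, 29.3, 32.6 and 35.5 CPM in WT and at 40.9, 45.5, 45.8 and 45.0 CPM in Flox libraries. The lowest Flox value lay well above the highest WT value. The means were 32.4 ± 2.54 and 44.3 ± 2.29 CPM (SD, n = 4), and the fitted difference was 36.7%. The log2 fold change was 0.45 (95% confidence interval 0.33 to 0.57), the largest of the 10 in absolute size. In the Y-linked fit it came to 0.51.

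The difference of Nrarp cannot be taken at face value, because another annotated gene covers the same bases. Gm38287 (ENSMUSG00000103217, chromosome 2, 25180781 to 25183339, minus strand) is classed as antisense, and its exons share 2051 of the 2582 exonic bases of Nrarp (79.4%). These are all 2051 exonic bases of Gm38287, so it has no annotated exonic base of its own. The libraries were made with a directional kit, but whether the counting used the strand is not given in the sources used here. The expected counts of Nrarp were not whole in any of the 8 libraries, as happens when reads that fit several genes are divided between them. Those of Gm38287 were not whole in any of the 8 either. The fractions of both genes completed each other, as in WT library 1 (697.9 and 228.1) and WT library 2 (663.1 and 293.9). Reads were thus divided between both genes, although these lie on opposite strands. For Hey1, Hey2, Heyl, Hes1 and the Fringe genes all counts were whole, while those of Rbpj were not whole in 8 libraries and those of Maml1 in 3.

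Gm38287 was at 10.5, 13.0, 15.7 and 11.3 CPM in WT and at 7.53, 3.27, 1.12 and 1.77 CPM in Flox libraries. In the counts as divided, it therefore moved against Nrarp. Its level apart from this division was not measured. The log2 fold change was -1.88 (95% confidence interval -2.67 to -1.09, edgeR's quasi-likelihood test, FDR 0.0454). That call was narrow: it was lost on omitting any library but Flox library 1 (log2 fold changes of -1.58 or below, edgeR FDR 0.0575 to 0.123), with the replicate number as a block, in the Y-linked fit and with DESeq2. Of the reads given to both genes, Gm38287 took 24.6%, 30.7%, 32.5% and 24.1% in WT and 15.6%, 6.71%, 2.39% and 3.77% in Flox libraries. Flox library 1 had the lowest Nrarp and the highest Gm38287 of its group.

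When the expected counts of both genes were summed before the fit, most of the difference was gone. The sum was at 42.8, 42.3, 48.3 and 46.8 CPM in WT and at 48.4, 48.7, 46.9 and 46.8 CPM in Flox libraries. These ranges overlap, and the means were 45.0 ± 2.95 and 47.7 ± 1.01 CPM (SD, n = 4). The log2 fold change was 0.08 (95% confidence interval -0.01 to 0.18). Whether transcription of Nrarp differed, or the share of reads given to it, cannot be told apart from these counts.

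**Figure D2:**
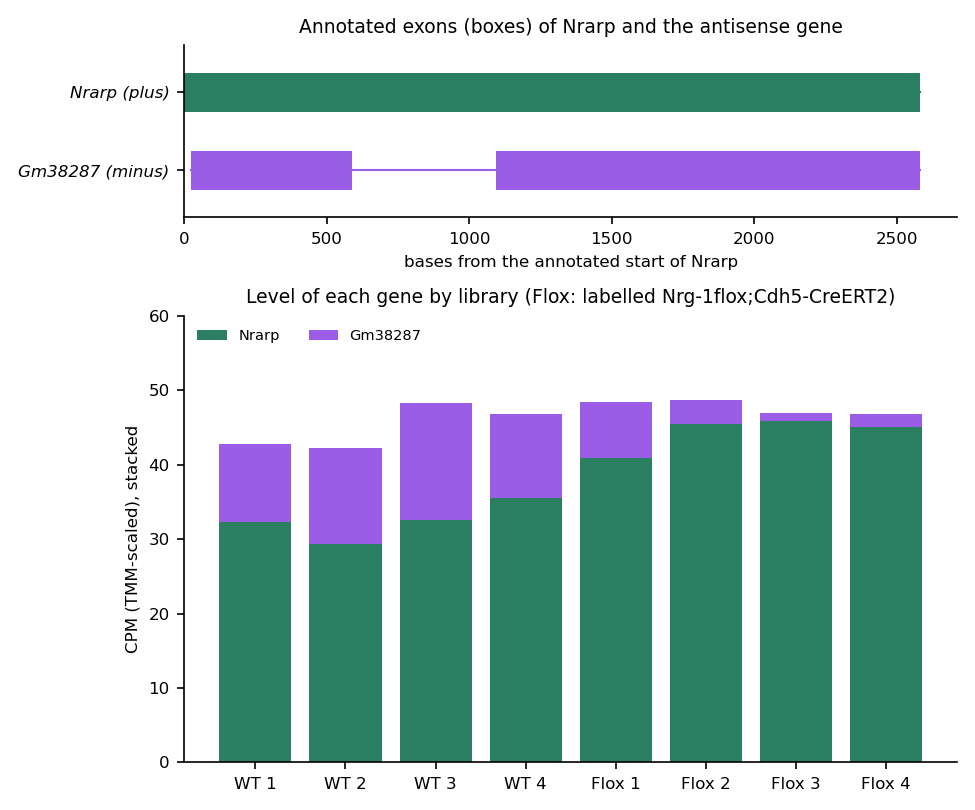
Upper panel, annotated exons of Nrarp (plus strand) and Gm38287 (minus strand) against the distance in bases from the start of Nrarp; lower panel, stacked CPM of both genes in each library. The total height stays between 42.3 and 48.7 CPM, while the Gm38287 portion shrinks in the Flox libraries.

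The 3 Fringe genes encode enzymes that add N-acetylglucosamine to fucose on the Notch receptor, with different strengths and tissue ranges. Mfng, manic fringe (ENSMUSG00000018169, chromosome 15, 78755882 to 78773475, minus strand), was at 12.9, 12.6, 12.5 and 12.0 CPM in WT and at 10.9, 11.9, 10.6 and 11.2 CPM in Flox libraries. All 4 Flox values lay below the WT values, by the narrow step between 11.91 and 11.99 CPM. The means were 12.5 ± 0.366 and 11.2 ± 0.550 CPM (SD, n = 4), which gave a log2 fold change of -0.16 (95% confidence interval -0.31 to -0.01). In the Y-linked fit it came to -0.19.

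Lfng, lunatic fringe (ENSMUSG00000029570, chromosome 5, 140607320 to 140615545, plus strand), was at 6.29, 6.71, 6.04 and 5.84 CPM in WT and at 6.52, 6.42, 5.97 and 8.12 CPM in Flox libraries. The 3 other Flox values lay within the WT range, and library 4 was the highest of the 8. On the log2 scale the difference was 0.11 (95% confidence interval -0.13 to 0.35), and without that library it was 0.02. Lfng was also the least abundant of the 10, with 128 to 153 expected counts per library.

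Rfng, radical fringe (ENSMUSG00000025158, chromosome 11, 120780746 to 120784207, minus strand), ranged from 17.02 to 18.1 CPM in WT and from 16.4 to 18.8 CPM in Flox libraries. The Flox range enclosed the WT range. Its log2 fold change was -0.02 (95% confidence interval -0.15 to 0.11). The Fringe family therefore held 1 gene with separated groups and 2 with overlapping ones.

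For both nuclear factors the groups overlapped. Rbpj, which encodes the factor through which Notch reaches DNA (ENSMUSG00000039191, chromosome 5, 53466152 to 53657362, plus strand), was at 74.8, 75.0, 81.7 and 80.8 CPM in WT and at 71.5, 72.6, 78.4 and 77.8 CPM in Flox libraries. In both groups libraries 1 and 2 were lower than libraries 3 and 4, so the groups overlapped. On the log2 scale the difference was -0.06 (95% confidence interval -0.15 to 0.03). Maml1 (ENSMUSG00000050567, chromosome 11, 50255634 to 50292311, minus strand) ranged from 39.2 to 40.1 CPM in WT and from 38.0 to 40.9 CPM in Flox libraries. With a log2 fold change of -0.01 (95% confidence interval -0.09 to 0.07), it had the narrowest spread of the 10 in WT, at 0.982% of the mean.

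**Figure D3:**
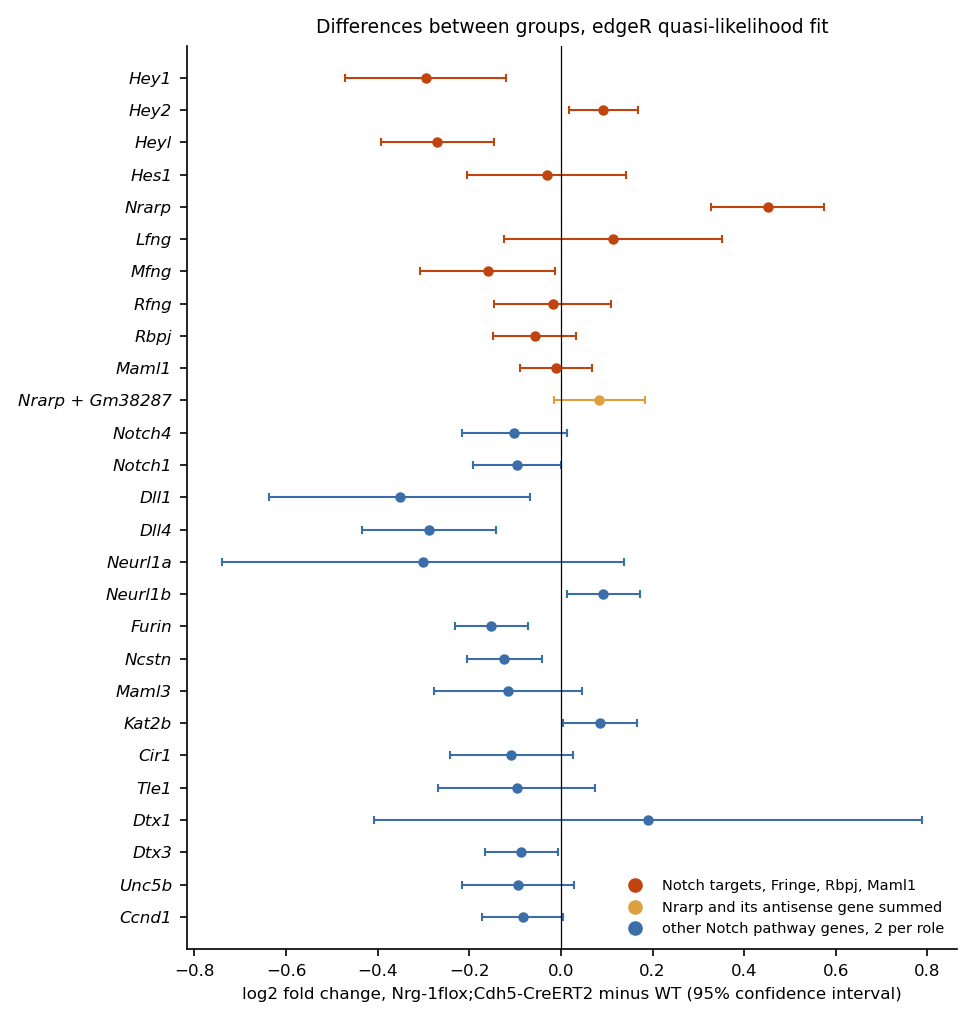
Log2 fold changes (labelled Nrg-1flox;Cdh5-CreERT2 minus WT) with 95% confidence intervals from edgeR's quasi-likelihood fit, for the 10 genes, for Nrarp and Gm38287 summed, and for 2 other pathway genes of each role. Nrarp alone stands at 0.45 and moves to 0.08 when summed with Gm38287, while Hey1 and Heyl lie near Dll4 on the lower side.

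Levels of different genes can be compared only per length, and CPM per kilobase of annotated exon was used for this. In WT, Hey2 was highest at 33.9 ± 1.20 (SD, n = 4), followed by Nrarp at 12.5 ± 0.984 and Hes1 at 8.33 ± 0.760. Maml1 (7.18 ± 0.0705) and Rfng (7.07 ± 0.178) had overlapping values, as had Rbpj (6.12 ± 0.290) and Heyl (5.39 ± 0.386), and Heyl and Hey1 (5.15 ± 0.413). Mfng (4.40 ± 0.129) and Lfng (2.48 ± 0.1497) were lowest, each apart from its neighbour. In the Flox libraries the order of the means was the same, but Hes1 overlapped with Maml1 and Hey1 with Mfng. The annotated exons of all Rbpj transcripts span 12750 bases, which lowers its value on this scale, and the value of Nrarp depends on the division of reads described above.

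**Figure D4:**
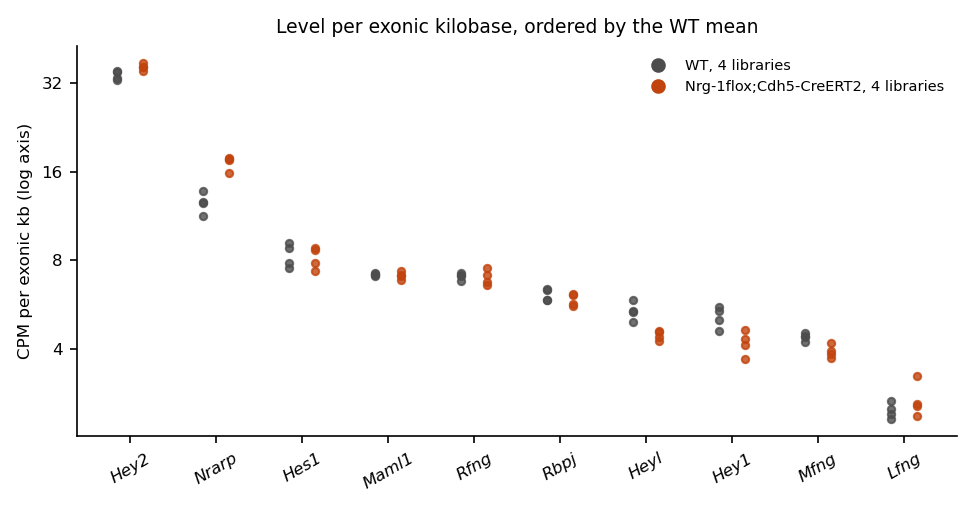
CPM per kilobase of annotated exon for the 10 genes, ordered by the WT mean, on a log axis; each point is a library. Hey2 stands above the rest at about 33.9 in WT, and Lfng is lowest at about 2.48.

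RefSeq promoter windows on GRCm38.p6 were at hand for 6 of the 10 genes (Hey2, Nrarp, Lfng, Rfng, Maml1 and Rbpj, the last with 2 windows), and the 250 bases before each start site were searched on both strands. The letters searched were TGGGAA, the core that RBPJ recognises, GTGGGAA, a longer form that contains it, CACGTG, an E-box of the kind that Hey and Hes proteins can bind, and CACGCG, a related box. Stretches of Nrarp, Lfng and Hey2 are shown, because these genes represent the feedback inhibitor, the Fringe enzymes and the most abundant repressor. Capitals mark the RBPJ core and both boxes, on either strand, and each stretch runs 5′ to 3′ on the strand of its gene.
Nrarp, chr2:25180630-25180675, plus strand: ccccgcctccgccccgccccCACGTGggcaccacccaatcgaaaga
Lfng, chr5:140607186-140607311, plus strand: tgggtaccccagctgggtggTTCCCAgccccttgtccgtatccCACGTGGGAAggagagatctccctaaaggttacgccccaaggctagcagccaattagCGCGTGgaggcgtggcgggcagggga
Hey2, chr10:30842965-30843010, minus strand: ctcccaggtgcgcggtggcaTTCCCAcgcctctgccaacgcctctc

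In Lfng, CACGTG began 112 bases before the start site and shared bases with GTGGGAA, which began at 109. Nrarp held CACGTG at 108 bases and no TGGGAA in this window, and Hey2 held the reverse complement of GTGGGAA at 207 bases. Of 32851 windows of the same length, 21.6% held TGGGAA, 5.42% GTGGGAA, 6.02% CACGTG and 7.62% CACGCG. Of the 7 windows of these genes, 4 held TGGGAA, 2 GTGGGAA, 2 CACGTG and 2 CACGCG. Both Rbpj windows are among those with TGGGAA, and they overlap and share a TGGGAA match, so they are not separate cases. A match in a window is a description of its letters and not a binding site.

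Markers of endothelial and mural cells were set beside Hey1, Heyl and Mfng, which sat lower in the Flox libraries. Which cells of this tissue express these genes was not measured. Of 11 endothelial markers, 9 were lower in the Flox libraries, with a median log2 fold change of -0.09. Together they summed to 1487 ± 19.3 CPM in WT and to 1429 ± 42.3 CPM in Flox libraries (SD, n = 4), with ranges of 1475 to 1516 and 1376 to 1475 CPM. Kdr (-0.17), Tie1 (-0.17) and Esam (-0.15) were lower without passing the FDR threshold. Emcn was higher (0.18), the farthest from 0 of the 11, and did not pass either. Cdh5, the gene whose promoter drives the Cre, was at 0.01. Of 8 mural markers, 7 were lower, with a median of -0.13, although the sum was not, since Acta2 (0.12) makes up most of it. No marker of either list was at 0, and none was called by edgeR's quasi-likelihood test. At an unadjusted p below 0.05 were 5 of 11 and 5 of 8, with 4 lower and 1 higher in each list. Over all tested genes 10.5% reached that level. DESeq2 called 3 of these 19 (Acta2, Kdr and Tie1), limma voom called 0, and edgeR with no filter on low counts called 4 (Esam, Kdr, Rgs5 and Tie1). Without Flox library 4 the same edgeR test called 2 (Kdr and Tie1), and without any other library 0. In bulk RNA, fewer cells of a type and less RNA per cell cannot be told apart, and the part of these markers in the differences of Hey1, Heyl and Mfng was not tested.

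Variation among libraries of the same group was not used in listing the genes, and it was compared with the marker levels after subtracting the group means, in 20 relations (10 genes against the mean log2 CPM of the endothelial and of the mural markers, 8 libraries). No relation passed after adjustment over the 20. Hes1 with the endothelial markers had the highest Pearson correlation, at r of 0.83 (p = 0.00868 in the exact permutation test, 0.0868 after adjustment). The Spearman rank correlation rho was 0.86 (p = 0.0139 in the exact permutation test, 0.278 after adjustment). The 2 libraries farthest from the median were WT library 4 and Flox library 1, and r was 0.82 with both left out. Without WT library 4 alone it was 0.78 (p = 0.0417 in the exact permutation test, 0.417 after adjustment). Next was Hey1 with the mural markers, at r of 0.81 (p = 0.00868 in the exact permutation test, 0.0868 after adjustment) and rho of 0.81 (p = 0.0347 in the exact permutation test, 0.347 after adjustment). Without WT libraries 2 and 3 its r was 0.90, but against the summed mural CPM it was 0.04. For Heyl, r was 0.62 with the mural and 0.13 with the endothelial markers (p = 0.262 and 0.696 in the exact permutation test). The points share a library, its depth and its makeup of cells.

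The rest of the pathway was examined as 61 further genes in 8 roles, of which 57 were tested. By edgeR's quasi-likelihood test 0 passed in either direction, beside 9 at an unadjusted p below 0.05 (7 lower and 2 higher), a level that 10.5% of all tested genes reached. DESeq2 called 2, Dll4 and Furin, both lower, and limma voom called 0. Their median log2 fold change was -0.03, with 20 higher and 37 lower, against -0.0012 over all tested genes. The CPM ranges of the groups were separate in 4 of the 57 (Dll4, Jag1, Furin and Ncstn). Over all tested genes they were separate in 6.05%, so nothing is read from this count.

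The ligands differed most. All 4 tested ligands were lower with an unadjusted p below 0.05, and their median log2 fold change was -0.26. Dll4, the main endothelial ligand of arterial and endocardial Notch, was at 29.0, 26.7, 26.1 and 26.8 CPM in WT and at 25.3, 20.8, 22.6 and 20.2 CPM in Flox libraries, with separated groups. Its log2 fold change was -0.29 (95% confidence interval -0.43 to -0.14, edgeR FDR 0.0869), and -0.30 in the Y-linked fit. Dll1 was low, at 5.83 to 7.68 CPM in WT and at 4.15 to 5.89 CPM in Flox libraries. Its log2 fold change was -0.35 in the main fit (edgeR FDR 0.352) and also in the Y-linked fit. Jag1 (-0.22) and Jag2 (-0.15) were also lower without passing, and the remaining ligand, Dll3, was below 0.1 CPM in every library. Most endothelial and mural markers were lower as well (medians of -0.09 and -0.13), and their part in the ligand differences was not tested.

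Among the 4 receptors, 3 were lower, with Notch4, the endothelial receptor, at -0.10 and Notch1 at -0.10. In the Y-linked fit these came to -0.02 and -0.01. The ubiquitin ligases that prepare ligands for signalling gave -0.30 for Neurl1a, a gene at 1.22 to 2.08 CPM, and 0.09 for Neurl1b. Of 11 genes that cut or glycosylate the receptor, 8 were lower. Furin, the protease that makes the first cut, had a log2 fold change of -0.15 (95% confidence interval -0.23 to -0.07, edgeR FDR 0.1002), and Ncstn, a part of gamma-secretase, of -0.12 (edgeR FDR 0.221). In the Y-linked fit Furin was at -0.11 and Ncstn at -0.13. Both are among the 4 genes with separate CPM ranges counted above.

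Among nuclear partners of the RBPJ complex, the median log2 fold change was 0.03 for the co-activator genes and -0.02 for the co-repressor genes. Farthest from 0 in each role were the co-activator genes Maml3 (-0.12) and Kat2b (0.08), and the co-repressor genes Cir1 (-0.11) and Tle1 (-0.10). In the Y-linked fit Maml3 and Cir1 came to -0.04 each and Tle1 turned to 0.0045. Among 9 negative regulators the extremes were Dtx1 at 0.19, from under 1.1 CPM in each library and 0.03 without Flox library 1, and Dtx3 at -0.09. Of 11 other genes that Notch can induce, 8 were tested. Unc5b, a vascular guidance receptor, and Ccnd1, which encodes cyclin D1, were the farthest from 0 at -0.09 and -0.08, but in the Y-linked fit Unc5b turned to 0.03 and Ccnd1 came to -0.04. The Hes relatives Hes5, Hes7 and Helt did not reach the level needed for a test, and Hes6 stood at 0.08. No difference in these 4 roles passed the edgeR test.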

How the data were processed

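Poly(A) RNA was made into directional libraries and sequenced as single reads of 60 bases, per the labels. The authors deposited expected counts per Ensembl gene, made with RSEM 1.3.1 after cutadapt on GRCm38 (Ensembl release 91 by the table's name). The aligner and the strand setting are not given in the sources used here. Of all values, 18.1% were not whole, and they were rounded. Positions and exonic lengths came from GENCODE M21 (GRCm38), which matched 53274 of 53465 identifiers. Genes were filtered with filterByExpr, scaled with TMM factors and compared in edgeR 4.0.16 by its quasi-likelihood test (glmQLFTest, two-sided, with group as the only term), with Benjamini-Hochberg adjustment and an FDR threshold of 0.05, in R 4.3.3. Intervals rest on that test's F statistic. Alternatives were RLE and total scaling, no filter, a minimum of 1 CPM in 4 libraries, DESeq2 1.42.0, limma voom 3.58.1, omission of each library, a replicate block, a Y-linked covariate, and FDR 0.1 and 0.01. The fit was tested on simulated data. Markers of endothelial, mural, cardiomyocyte, epicardial, fibroblast, erythroid and macrophage cells were summed. Named were the 10 genes, Nrg1, Gm38287, any other pathway gene that passed and the 2 tested genes of each role with the largest absolute log2 fold change (Jag1, Jag2, Hes6 and untested genes were added after their values were seen), markers that a result rests on, and the 3 genes most correlated with Nrarp. Genes and lists were chosen with earlier results of these data known. P-values measure the spread between these libraries, whose litters are not given. Whether each library holds 1 ventricle alone is uncertain, given the Xist and Y-linked counts.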

Additional observations from a re-analysis of the deposited data

Results flagged for a closer look

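In 70 groups of 4 values, 3 held a library far from the others, where chance gives about 3.5. The Nrarp level of Flox library 1 was 40.9 CPM, whereas the rest of its group lay between 45.03 and 45.8 CPM. Maml3, a Mastermind co-activator, reached 14.93 CPM in WT library 4, whereas the rest lay between 12.81 and 12.95 CPM. The summed endothelial markers reached 1516 CPM in WT library 4, whereas the rest lay between 1475 and 1481 CPM.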

How the results depend on the processing

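Nrarp was higher in each of its 16 alternatives (0.41 to 0.51), and its sum with Gm38287 lay at 0.05 to 0.12 in 12. The number of the 10 genes called was 1 in the main fit, 3 with no filter (2 of them lower, Hey1 and Heyl), 2 with DESeq2 and at FDR 0.1 (1 lower, Heyl), and 0 at FDR 0.01 (0 higher). Omitting a library left it at 1 to 1. Of the other pathway genes 3 were called with no filter (3 lower), 2 with DESeq2 (2 lower), 1 at FDR 0.1 (1 lower), and 0 to 1 when a library was omitted (0 to 1 lower): Dll4 without Flox library 1 and Furin without Flox library 4. The cause of these shifts was not tested. On the divided counts, Gm38287 was lower in all of its 16 alternatives (-2.58 to -1.58). It passed in 6 of them (RLE and total scaling, no filter, the CPM minimum, limma voom and without Flox library 1). Its fits with no filter, the CPM minimum, DESeq2, limma voom and the covariate were added after seeing the data. Over all genes 338 of 29350 were called with no filter, against 81 of 15388 in the main fit. Of the same 15388 genes, 198 were called with DESeq2, 190 at FDR 0.1, 3 at FDR 0.01 and 93 with the replicate block. The median over the 10 genes ranged from -0.06 to 0.01, and it was above 0 with the Y-linked covariate. Hes1 was above 0 with that covariate, without WT library 4 and without Flox library 3, Rfng with that covariate and without Flox library 2, and Maml1 without Flox library 2. Unc5b and Tle1 were above 0 with that covariate. The covariate fit of the Nrarp sum (0.11) was added after seeing the data.

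Deviations of same-numbered libraries from their group means correlated across genes at 0.0998, 0.0474, 0.0447 and 0.121. Each was above those of differently numbered libraries (-0.0877 to 0.0195). The main fit left the number out, as not all were over 0.1. Whether same-numbered libraries share a litter or batch is not given in the sources used here and was not tested. With the replicate block 1 of the 10 genes was called (Nrarp, 0.45), 0 of the other pathway genes, and the Nrarp sum was at 0.09. Gm38287 lost its call there (-1.98, FDR 0.0533). Among the 10 genes Lfng had the fewest counts, 128 in its lowest library.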

Other observations

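Over the 8 libraries, the genes whose log2 CPM was most like that of Nrarp, among 11972 with a mean log2 CPM of at least 1, were Ehd1 (Pearson's r 0.98), Trir (0.98) and Gata6 (0.97). Each was higher in the Flox libraries, with log2 fold changes of 0.09, 0.18 and 0.19. Nrarp separated the groups and group means were not subtracted, so the ranking favoured genes that differ between groups in the same direction. Their direction is therefore not a separate result, and no p-value is given. The Nrarp level also depends on the division of reads with Gm38287 described above. Gata6, which encodes a cardiac GATA factor, was at 174.5 to 185.8 CPM in WT and 198.5 to 210.8 CPM in Flox libraries.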
